A study of Saccharomyces cerevisiae with 15 samples.

Results

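The levels of 9 budding yeast genes that cap chromosome ends, build telomerase or set telomere length were described, out of 6659 genes with a deposited value. They were taken by name: STN1, TEN1 and CDC13 for the cap, EST1, EST2 and EST3 for telomerase, and RIF1, RIF2 and TEL1 for length control. The data are RNA sequencing of rRNA-depleted RNA from 15 libraries of Saccharomyces cerevisiae, in 11 genotypes. All strains were haploid, of the BY4741/2 background with his-, leu- and ura- markers, and were grown in YPD to mid-log phase. The wild type (named wild type 1 and 3 by their numbers in the labels) and the deletions of htz1, xrn1 and upf1 had 2 libraries each. The swr1 deletion, the double deletions htz1 upf1, swr1 upf1, htz1 xrn1 and swr1 xrn1, the prp43 DAmP allele, and prp43 DAmP with the htz1 deletion had 1 library each. HTZ1 encodes the histone variant H2A.Z and SWR1 the remodeller that deposits it. PRP43 encodes an RNA helicase of splicing and ribosome assembly, and a DAmP allele lowers a gene's mRNA. The series describes its libraries as independent preparations and does not say that they came from separate cultures, so the p-values measure the spread between these libraries, which may be technical.

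Telomeres in budding yeast end in a single-stranded overhang that the Cdc13-Stn1-Ten1 complex covers, and Cdc13 also recruits telomerase through Est1. Upf1 is the helicase of nonsense-mediated decay, which removes mRNAs whose translation stops early. Xrn1 is the cytoplasmic exonuclease that degrades decapped mRNA from its 5′ end, and decay through Upf1 passes mostly through it. Nonsense-mediated decay is known from earlier work to keep STN1, TEN1 and telomerase subunit mRNAs low in this yeast.

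Levels are given as RPKM, the authors' read density, which divides reads by gene length and by library size. Library totals of 7160191 to 57373647 reads followed from these values. XRN1 itself was at most 0.290 RPKM in the 4 libraries labelled xrn1, and UPF1 (listed as NAM7) was at most 0.192 RPKM in the 4 labelled upf1. HTZ1 was at most 0.273 RPKM in the 5 libraries labelled htz1 and SWR1 at most 0.0972 in the 3 labelled swr1, while PRP43 was at 42.7 and 55.4 RPKM with the DAmP allele and at 84.8 to 157.3 in the other libraries. The 5 libraries htz1 1, swr1, htz1 upf1, swr1 upf1 and swr1 xrn1 held 12.1 to 21.2% of their summed RPKM in ribosomal DNA sequence, against 0.0187 to 3.41% in the other 10. Wild type 1 and the 3 libraries without SWR1 expressed the α mating pheromone gene MF(ALPHA)1, and the other libraries expressed the a-cell receptor gene STE2. Controls below are the 5 libraries of the wild type, htz1 and swr1. The 4 libraries without UPF1 and the 4 without XRN1 were each compared with these controls, with the H2A.Z state as a term, so both comparisons share the same 5 controls. The test was limma on log2(RPKM + 1), a scale that shrinks changes of low genes, over 6495 genes, with a Benjamini-Hochberg adjusted p under 0.05 as the call. The median gene lay 0.23 above the controls without UPF1 and 0.99 above them without XRN1 on this scale. When libraries were instead set to a common median log ratio (called rescaling here) those medians were -0.09 and 0.05. Changes are therefore also given relative to the median gene, while each adjusted p is that of the unshifted value.

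Loss of UPF1 and loss of XRN1 each raised the same 7 genes by a wide margin over the controls: STN1, TEN1, EST1, EST2, EST3, RIF2 and TEL1. CDC13 and RIF1 differed from them. CDC13 rose little without UPF1 and more without XRN1, and RIF1 was called only without XRN1; the XRN1 calls of both and the UPF1 call of CDC13 were lost on rescaling. The mean level of STN1 was 8.24 times the control mean without UPF1 and 8.13 times without XRN1. EST2 was at 7.85 and 6.79 times, and the other 5 of the 7 lay between 2.98 and 4.94 times. These ratios include the rise of the median gene, 0.23 on the log2 scale without UPF1 and 0.99 without XRN1. Relative to the median gene the 7 rose by 1.28 (TEL1) to 2.64 (STN1) without UPF1. Without XRN1 they rose by 0.65 (EST1) to 1.84 (STN1) relative to it. By size of change among all tested genes the 7 ranked 16 to 547 without UPF1 and 39 to 1107 without XRN1.

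**Figure D1:**
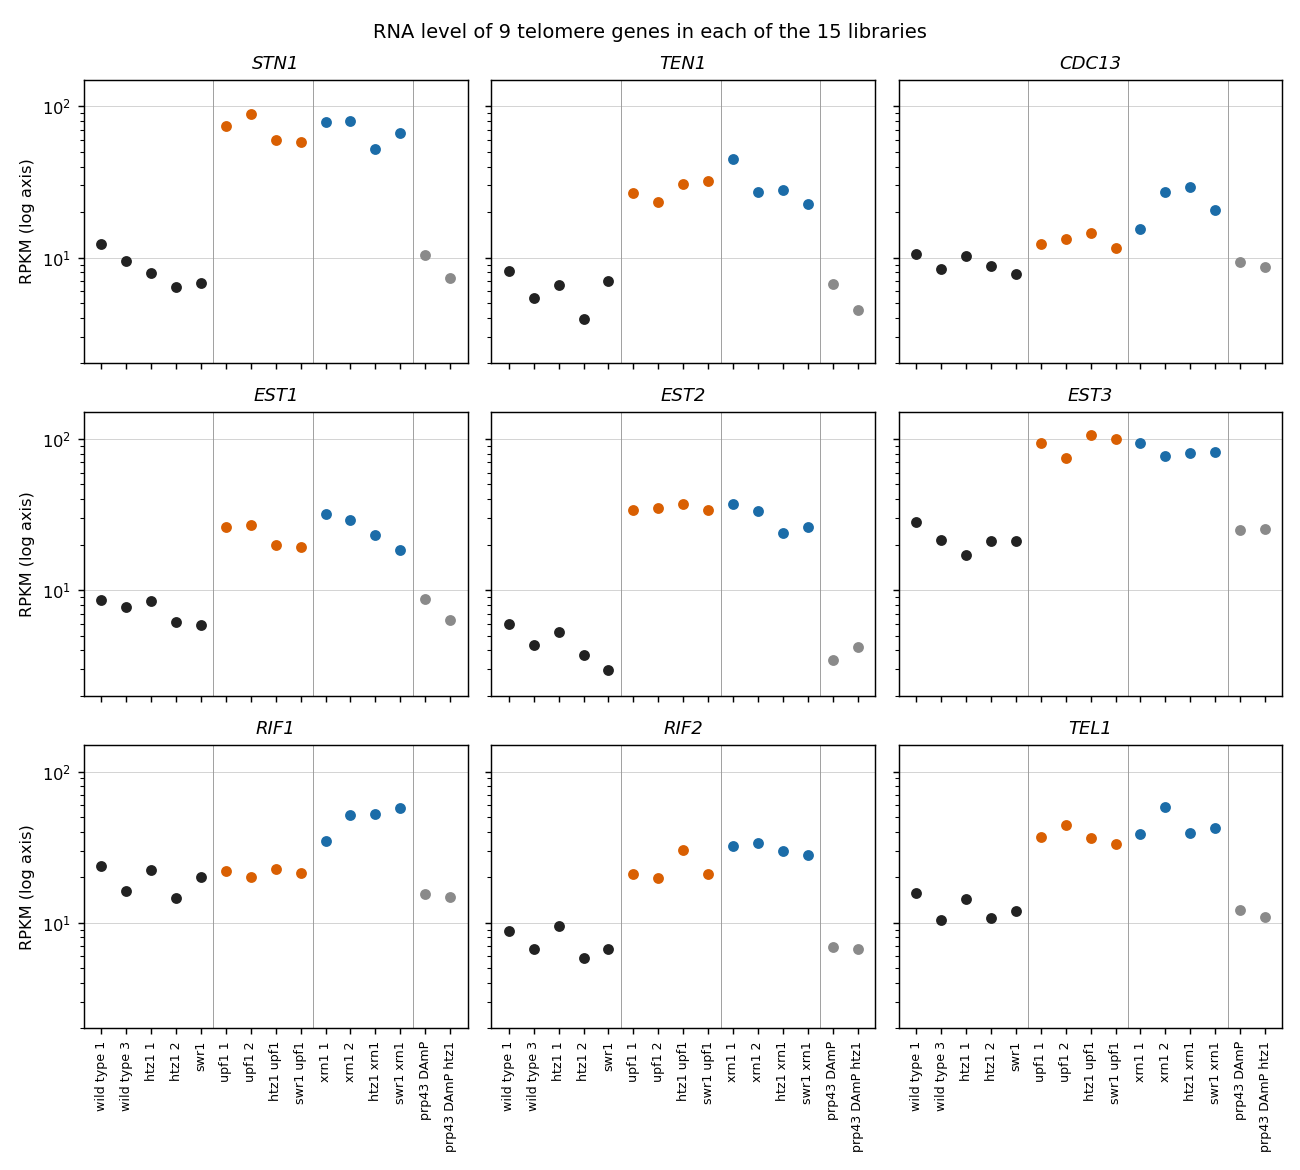
RPKM (log axis) of each of the 9 genes in each of the 15 libraries, 1 point per library. Black points are the 5 controls, orange the 4 libraries without UPF1, blue the 4 without XRN1 and grey the 2 with the prp43 DAmP allele. Orange and blue points lie above all black and grey points in 8 panels, and in the RIF1 panel only the blue points do, at 34.8 to 57.7 RPKM.

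Stretches at which translation could end early are shown for 5 of the genes called higher without UPF1. Among these, the CDC13 call was lost on rescaling. Whether such stretches bear on the rise of any gene was not tested, and each of the 5 has further upstream ATGs that are not shown. For each of the 5, one upstream frame short enough to lie within 30 bases was chosen; EST3 is shown at its frameshift instead, and RIF2's frames, of 39 and 36 bases, are longer. A search of the 100 bases before each start codon, on the gene's own strand, looked for ATG triplets that are out of frame or meet a stop before the start codon. Their sequences are from the R64 genome (RefSeq), 5′ to 3′ on the gene's strand, with the upstream ATG and its first in-frame stop in capitals. The bases shown begin 13 bases before the STN1 start codon at chrIV:610428-610457 (+), 88 before TEN1 at chrXII:167861-167890 (-), 26 before CDC13 at chrIV:65015-65044 (-), 22 before EST1 at chrXII:609517-609546 (-) and 70 before EST2 at chrXII:766472-766501 (+).
STN1: ATGggttggagccatggaTAAgtacggaca
TEN1: ATGcccttattcTAGgacataattcactat
CDC13: ATGaccgtggaaactatcgccTAAaaatgg
EST1: ATGacacatgccaccatagataatggaTAA
EST2: ATGacacaagtgaaaTAGaaaagtgaaaaa
In STN1 the upstream ATG opens a frame of 21 bases that runs past the gene's own start codon, and in EST1 one of 30 bases does so. TEN1 has a further one, not shown, of 96 bases that starts 92 bases before its start codon and also runs past it. At least 1 such ATG lay before 7 of the 9 genes, and none before RIF1 or TEL1, of which TEL1 was called higher in both comparisons. Over all 5792 tested nuclear protein-coding genes 50.6% had one, over the 1685 of them called higher without UPF1 66.5%, and over the other 4107 44%. Neighbouring hits can overlap in these windows. The 5′ ends of the RNAs are not in the files, so whether an upstream ATG is transcribed was not tested.

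EST3 has upstream ATGs 84 and 51 bases before its start codon, both with a stop before it, and also a stop inside the gene in its first frame. Its annotation skips 1 base, at position 335936 of chromosome IX, which joins a first stretch of 92 codons to a second of 90 by a +1 ribosomal frameshift. The site is shown from R64 at chrIX:335906-335966 on the minus strand, with the last codon before the shift, the skipped base and the next codon in capitals.
EST3: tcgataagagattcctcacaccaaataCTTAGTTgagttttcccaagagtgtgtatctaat
Read without the shift, the frame meets TGA at codon 94, which is 51.01% of the way along the gene. ABP140 and OAZ1, named for this reason only, are the other genes in the table with an annotated gap of this kind. ABP140 was 0.40 higher without UPF1 on the log2 scale (limma adjusted p = 0.0380) and OAZ1 was 0.15 higher (adjusted p = 0.722), against 2.04 for EST3.

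STN1 (YDR082W, chrIV:610441-611925, +) encodes the cap subunit that joins Cdc13 to Ten1 and helps fill in the complementary strand. Its level was 12.2 RPKM in wild type 1, 9.43 in wild type 3, 7.91 in htz1 1, 6.38 in htz1 2 and 6.82 in swr1. Without UPF1 it was 74.5 and 89.1 RPKM in the upf1 libraries, 60.2 in htz1 upf1 and 58.0 in swr1 upf1. The XRN1 deletions gave 79.3 and 80.2 RPKM, with 52.3 in htz1 xrn1 and 66.3 in swr1 xrn1. Every library without UPF1 or XRN1 stood far above every control, and the deletions overlapped each other. STN1 rose by a log2 difference of 2.87 ± 0.14 (SE, 4 against 5 libraries) without UPF1, 2.64 above the median gene, with a limma adjusted p of 5.6e-06. Its change ranked 16 of the 6495 tested genes. Without XRN1 the log2 difference was 2.84 ± 0.15 (limma adjusted p = 2.89e-06), 1.84 above the median gene.

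TEN1 (YLR010C, chrXII:167320-167802, -) encodes the smallest cap subunit, the partner of Stn1. It had the fewest reads of the 9 genes, with 59 in wild type 1. TEN1 was at 8.15 and 5.38 RPKM in the wild type, 6.56 and 3.95 in htz1 and 6.99 in swr1. In the absence of UPF1 it reached 26.6 and 23.5 RPKM in upf1, 30.7 in htz1 upf1 and 32.1 in swr1 upf1. Loss of XRN1 gave 44.9 and 27.2 RPKM in xrn1, 27.9 in htz1 xrn1 and 22.7 in swr1 xrn1. The controls lay well below both sets of deletions, and xrn1 1 was above the other 3 libraries without XRN1. TEN1 rose by 2.02 ± 0.20 on the log2 scale without UPF1 (SE, 4 against 5 libraries; limma adjusted p = 8.77e-05) and by 2.08 ± 0.23 without XRN1 (adjusted p = 3.37e-05). Relative to the median gene these are 1.79 and 1.09.

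CDC13 (YDL220C, chrIV:62244-65018, -) encodes the subunit that binds the single-stranded overhang and recruits telomerase. Its levels were 10.6 and 8.44 RPKM in the wild type, 10.3 and 8.79 in htz1 and 7.77 in swr1. Without UPF1 CDC13 was 12.2 and 13.4 RPKM in upf1, 14.7 in htz1 upf1 and 11.6 in swr1 upf1. XRN1 loss gave 15.4 and 27.2 RPKM in xrn1, 29.1 in htz1 xrn1 and 20.7 in swr1 xrn1. The 3 sets did not overlap: controls were lowest, libraries without UPF1 came just above them, and libraries without XRN1 were highest. CDC13 was called higher without UPF1 by 0.48 ± 0.14 on the log2 scale (SE, 4 against 5 libraries; limma adjusted p = 0.0302), 0.25 above the median gene. That call was lost after rescaling (0.16, adjusted p = 0.190) and on leaving out any single library but wild type 1 and htz1 1, with the log2 difference between 0.44 and 0.55. With only libraries poor in rDNA sequence the log2 difference was 0.40 (limma adjusted p = 0.591). There it rests on the 2 upf1 and the 2 wild-type libraries alone. Without XRN1 the difference was 1.25 ± 0.20 (limma adjusted p = 0.000271), 0.26 above the median gene, and it was not called after rescaling (0.31, adjusted p = 0.156).

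EST1 (YLR233C, chrXII:607425-609524, -) encodes the telomerase subunit that bridges the enzyme to Cdc13. It measured 8.68 and 7.71 RPKM in the wild type, 8.49 and 6.12 in htz1 and 5.88 in swr1. EST1 was at 26.4 and 26.96 RPKM in upf1, 19.8 in htz1 upf1 and 19.4 in swr1 upf1. It was at 31.7 and 29.0 RPKM in xrn1, 23.2 in htz1 xrn1 and 18.4 in swr1 xrn1. All 8 deletions stood above the controls, with the libraries that also lack HTZ1 or SWR1 at the lower end of each set. EST1 rose by 1.51 ± 0.15 without UPF1 (SE, 4 against 5 libraries; limma adjusted p = 8.03e-05) and by 1.64 ± 0.16 without XRN1 (adjusted p = 1.59e-05). Relative to the median gene the log2 values are 1.28 and 0.65.

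EST2 (YLR318W, chrXII:766542-769196, +) encodes the reverse transcriptase of telomerase. EST2 was the lowest of the 9 genes in the controls, at 5.93 and 4.36 RPKM in the wild type, 5.27 and 3.73 in htz1 and 2.98 in swr1. Its level without UPF1 was 33.98 and 35.1 RPKM in upf1, 37.0 in htz1 upf1 and 33.9 in swr1 upf1. Without XRN1 EST2 was 37.3 and 33.4 RPKM in xrn1, 23.9 in htz1 xrn1 and 26.3 in swr1 xrn1. The libraries without UPF1 lay close together and the controls far below both sets. EST2 rose by 2.76 ± 0.17 without UPF1 (SE, 4 against 5 libraries; limma adjusted p = 1.33e-05), 2.53 above the median gene and at rank 28 of 6495. The log2 difference without XRN1 was 2.505 ± 0.18 (limma adjusted p = 5.75e-06), 1.51 above the median gene.

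EST3 (YIL009C-A, chrIX:335666-336212, -) encodes the small telomerase subunit made through the frameshift shown above. It was the highest of the 9 in the controls, at 28.4 and 21.6 RPKM in the wild type, 17.0 and 21.2 in htz1 and 21.1 in swr1. EST3 reached 94.5 and 75.1 RPKM in upf1, 105.5 in htz1 upf1 and 99.6 in swr1 upf1. It reached 94.4 and 76.6 RPKM in xrn1, 81.1 in htz1 xrn1 and 82.3 in swr1 xrn1. Both sets of deletions were clear of the controls and overlapped each other. EST3 rose by 2.04 ± 0.17 without UPF1 (SE, 4 against 5 libraries; limma adjusted p = 4.08e-05) and by 1.87 ± 0.15 without XRN1 (adjusted p = 7.77e-06). These are 1.81 and 0.88 above the median gene.

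RIF1 (YBR275C, chrII:751356-757106, -) encodes a Rap1-binding protein that limits telomere elongation and also restrains replication origins. RIF1 was at 23.8 and 16.3 RPKM in the wild type, 22.3 and 14.6 in htz1 and 20.2 in swr1. Without UPF1 its levels were 22.0 and 19.9 RPKM in upf1, 22.6 in htz1 upf1 and 21.2 in swr1 upf1. Without XRN1 they were 34.8 and 51.8 RPKM in xrn1, 52.2 in htz1 xrn1 and 57.7 in swr1 xrn1. The libraries without UPF1 fell within the control range, and those without XRN1 all lay above it. The difference without UPF1 was 0.15 ± 0.17 on the log2 scale (SE, 4 against 5 libraries; limma adjusted p = 0.579), with a 95% interval from -0.24 to 0.54, and it changed sign after rescaling (-0.17, adjusted p = 0.160). Without XRN1 RIF1 was called higher by 1.29 ± 0.20 (limma adjusted p = 0.000229), 0.29 above the median gene, and the call was lost after rescaling (0.34, adjusted p = 0.0700).

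RIF2 (YLR453C, chrXII:1041799-1042986, -) encodes another Rap1-binding protein that limits elongation, in part by opposing Tel1. RIF2 was at 8.76 and 6.71 RPKM in the wild type, 9.46 and 5.83 in htz1 and 6.76 in swr1. It was at 21.0 and 19.7 RPKM in upf1, 30.1 in htz1 upf1 and 20.9 in swr1 upf1. The libraries without XRN1 gave 32.3 and 33.6 RPKM in xrn1, 29.7 in htz1 xrn1 and 27.9 in swr1 xrn1. Controls were lowest throughout, and htz1 upf1 was the one library without UPF1 that reached the range without XRN1. RIF2 rose by 1.52 ± 0.19 without UPF1 (SE, 4 against 5 libraries; limma adjusted p = 0.000285) and by 1.92 ± 0.17 without XRN1 (adjusted p = 1.2e-05). These log2 values are 1.29 and 0.93 above the median gene.

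TEL1 (YBL088C, chrII:51019-59382, -) encodes the ATM-like kinase that favours telomerase action at short telomeres. TEL1 was at 15.6 and 10.4 RPKM in the wild type, 14.5 and 10.8 in htz1 and 11.9 in swr1. It was at 36.9 and 44.6 RPKM in upf1, 36.3 in htz1 upf1 and 32.96 in swr1 upf1. It was at 38.8 and 58.4 RPKM in xrn1, 39.2 in htz1 xrn1 and 42.3 in swr1 xrn1. All 8 deletions stood above the controls, and xrn1 2 was the highest. TEL1 rose by 1.51 ± 0.16 without UPF1 (SE, 4 against 5 libraries; limma adjusted p = 0.000139) and by 1.72 ± 0.19 without XRN1 (adjusted p = 2.81e-05). Relative to the median gene the log2 values are 1.28 and 0.73.

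**Figure D2:**
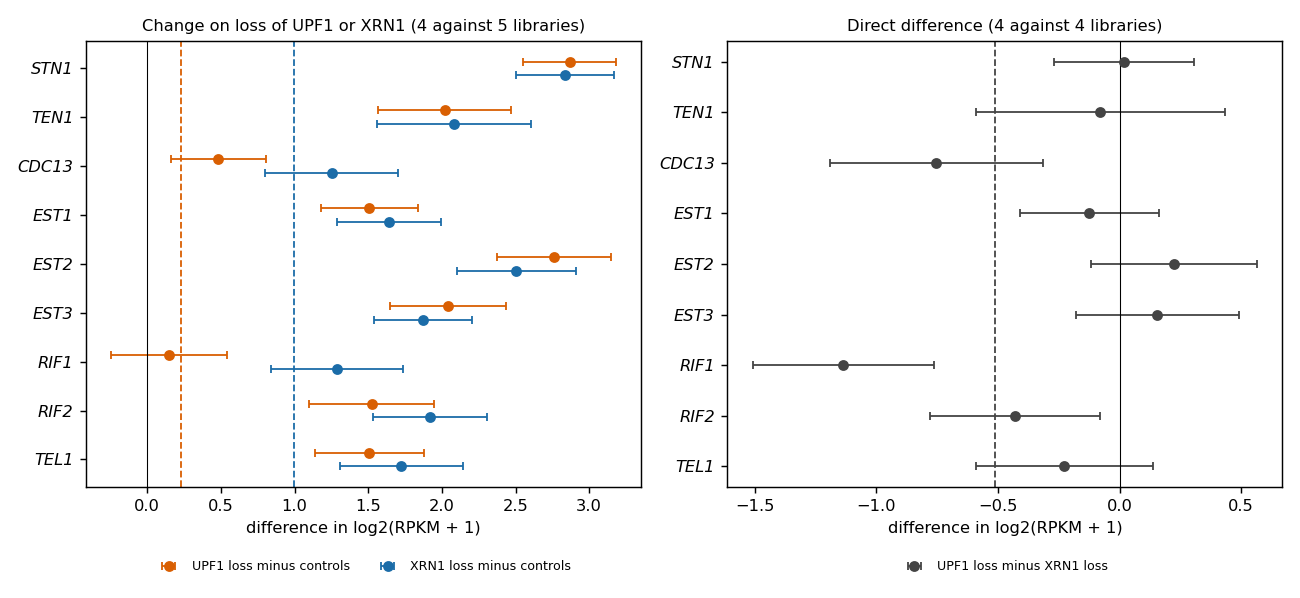
Difference in log2(RPKM + 1) for each gene, with 95% confidence intervals from limma. The left panel shows loss of UPF1 (orange) and of XRN1 (blue) against the 5 controls, and the right panel loss of UPF1 minus loss of XRN1, 4 libraries against 4; dashed lines mark the median of all tested genes. Points for 7 genes lie right of the dashed line of their colour in the left panel, by 0.65 (EST1 without XRN1) to 2.64 (STN1 without UPF1), while CDC13 and RIF1 lie at most 0.29 above it.

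Without UPF1, 8 of the 9 genes were called higher and none lower by limma; the ninth, RIF1, had an unadjusted p of 0.412. Over all tested genes 28.8% were called higher and 0.847% lower. The share of these genes was larger, but they were chosen with earlier results of these data known. The difference in shares is therefore a description and not a test. After rescaling 7 of the 9 were called higher, beside 21.7% of all genes higher and 15.6% lower. For 8 of the 9 all 4 libraries without UPF1 lay above all 7 libraries with both UPF1 and XRN1, against 24.5% of all tested genes. The median difference of the 9 genes was 1.52 on the log2 scale, against 0.23 for all genes.

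Without XRN1, 9 of 9 genes were called higher, where 74.1% of all tested genes were called higher and 7.19% lower. Most genes were thus called higher in that deletion, and the count alone does not set the 9 apart. Their median difference was 1.87 on the log2 scale, against 0.99 for all genes. All 4 libraries without XRN1 lay above all 7 with both genes for 9 of 9, against 61.3% of tested genes. After rescaling 7 of 9 were called higher, beside 31.7% of all genes higher and 28.7% lower. The 100 genes most abundant in the controls made up 41.9 to 54.5% of summed RPKM in the controls, 39.8 to 50% without UPF1 and 23.6 to 31.9% without XRN1. Entries of ribosomal DNA sequence, whose share also differed between libraries, were not left out of this ranking. How much of the shift is theirs was not tested. The part of this shift in RPKM in the 9 genes' values was not tested beyond the rescaling. Called higher in both comparisons were 27.6% of tested genes, without UPF1 alone 1.25% and without XRN1 alone 46.5%; of the 9 genes, 8 belong to the first set and RIF1 to the last.

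**Figure D3:**
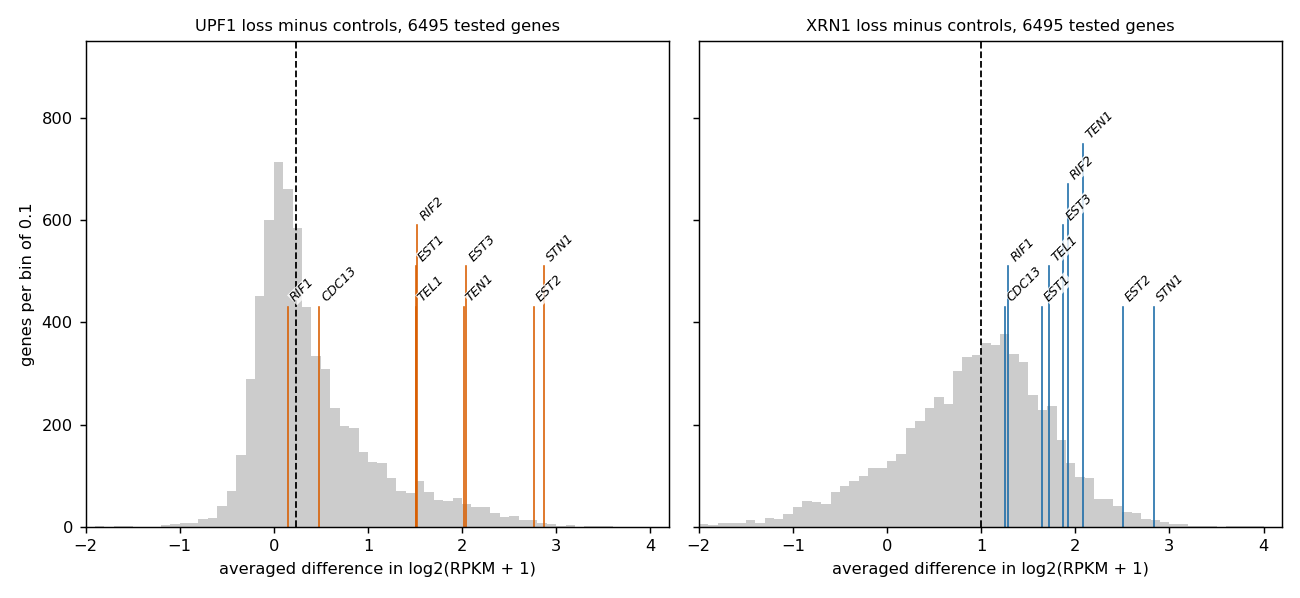
Histograms (bins of 0.1) of the averaged difference in log2(RPKM + 1) for the 6495 tested genes without UPF1 (left) and without XRN1 (right), with a coloured line at each of the 9 genes and a dashed line at the median of all genes. STN1 (2.87) and EST2 (2.76) lie in the far upper tail on the left, and RIF1 (0.15) lies left of the median of 0.23.

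The direct comparison of the deletions, which uses no control library, called RIF1, CDC13 and RIF2 lower without UPF1 than without XRN1, and RIF1 was the one of these still called lower after rescaling. RIF1 was lower without UPF1 than without XRN1 by a log2 difference of -1.14 ± 0.16 (SE, 4 against 4 libraries; limma adjusted p = 0.000527), and CDC13 by -0.75 ± 0.19 (adjusted p = 0.00898). These are the genes for which the 2 sets of libraries did not overlap, with XRN1 loss higher, as for 46.4% of tested genes, while 6.16% had UPF1 loss wholly higher. RIF2 was lower by -0.43 ± 0.15 (adjusted p = 0.0368), with overlapping libraries. In all, 3 of 9 genes were called lower and none higher, beside 53.2% and 8.62% of tested genes, and the median gene lay at -0.51.

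For STN1 the direct difference was 0.02, with a 95% interval from -0.27 to 0.31. TEN1 was at -0.08 (-0.59 to 0.43) and TEL1 at -0.23 (-0.59 to 0.14). The telomerase genes were at -0.13 for EST1 (-0.41 to 0.16), 0.22 for EST2 (-0.12 to 0.57) and 0.15 for EST3 (-0.18 to 0.49). None of these 6 reached the call, with limma adjusted p between 0.222 and 0.911, which does not show that the deletions act alike on them.

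The direct comparison depended on how libraries were scaled. After rescaling, STN1 (0.66), EST1 (0.51), EST2 (0.86) and EST3 (0.79) were called higher without UPF1 than without XRN1 by limma, with adjusted p between 0.00137 and 0.00978. RIF1 stayed lower (-0.50, adjusted p = 0.0345) and CDC13 was not called (-0.12, adjusted p = 0.641). RIF2 (0.21), TEN1 (0.56), EST1 and TEL1 (0.41) turned from negative to positive, and of these EST1 was called. On that scale 31.5% of tested genes were higher and 21.2% lower. The RIF2 call on RPKM as deposited was also lost without any one of upf1 1, upf1 2, swr1 upf1, xrn1 1, xrn1 2 or swr1 xrn1, with adjusted p from 0.0777 to 0.109. The CDC13 call was lost with the share of rDNA sequence as a covariate (-0.65, adjusted p = 0.0641). It was also lost with only libraries poor in rDNA sequence (-0.64, adjusted p = 0.125). That difference rests on the 2 upf1 and the 2 xrn1 libraries, the comparison with H2A.Z intact given below.

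In cells with H2A.Z and its remodeller intact, 2 libraries were compared with 2. Loss of UPF1 alone raised STN1, TEN1, EST1, EST2, EST3, RIF2 and TEL1, 7 of 9, over the wild type, where 13.2% of tested genes were called higher and 0.0924% lower. STN1 (2.81 ± 0.24) and EST2 (2.54 ± 0.26) rose most by limma (SE; adjusted p = 0.000707 and 0.000941), and CDC13 (0.40, adjusted p = 0.537) and RIF1 (0.08, adjusted p = 0.933) were not called. The count fell to 4 without wild type 3 or without upf1 2, and to 5 without upf1 1, while the genes called higher among all tested fell from 860 to 363, 288 and 506; a lone library is then assumed to vary like the replicated genotypes. Loss of XRN1 alone raised 9 of 9, beside 60.8% of tested genes higher and 4.14% lower, led by STN1 (2.78 ± 0.24, limma adjusted p = 0.000419) and EST2 (2.57 ± 0.26, adjusted p = 0.000468). After rescaling it raised 7 of 9, without CDC13 and RIF1, beside 18.4% of tested genes higher and 18.1% lower. The CDC13 and RIF1 calls were also lost without wild type 3 or without xrn1 2. Between the 2 single deletions RIF1 alone was called, lower without UPF1 by -0.99 ± 0.31 (limma adjusted p = 0.0299), beside 38.9% of tested genes lower and 3.03% higher, or 13.3% and 19.4% after rescaling. That call was lost with the replicate number as a block (adjusted p = 0.0504), after rescaling (-0.28, adjusted p = 0.321) and without upf1 1, upf1 2 or xrn1 2 (adjusted p from 0.0822 to 0.182).

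The libraries rich and poor in rDNA sequence gave the same counts when taken apart. Among the rich libraries, the 2 without UPF1 lay above the 2 controls for 8 of 9 genes, and swr1 xrn1 lay above them for 9 of 9. Among the poor libraries the counts were again 8 and 9. The ratio of means without UPF1 was 8.03 in the rich libraries and 8.75 in the poor ones for STN1, 8.59 and 7.39 for EST2, and 1.03 and 1.15 for RIF1. By mating type the counts were also 8 without UPF1 and 9 without XRN1, within the α libraries and within the a libraries. RIF1 was the exception without UPF1 in each of these 4 splits. The share of all tested genes was not counted within the splits, which held as few as 1 deletion library against 2 controls. With all 4 deletion libraries against the 7 with both genes it was 24.5% without UPF1 and 61.3% without XRN1. That is a stricter condition, so the shares within splits can only be as large or larger. The counts within splits thus describe the 9 genes and do not set them apart from others.

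Without HTZ1, 1 of the 9 genes was called, and that call was not stable. Averaged over the wild-type, upf1, xrn1 and prp43 DAmP backgrounds, STN1 was lower without HTZ1 by -0.51 ± 0.11 on the log2 scale (SE, 5 libraries against 7; limma adjusted p = 0.0449), beside 1.48% of tested genes lower and 0.446% higher, or 3.45% and 2.19% after rescaling. The call was lost on leaving out any one of the 12 libraries, with the difference between -0.55 and -0.46 and adjusted p from 0.0585 to 0.155, and held after rescaling (-0.47, adjusted p = 0.0120). In this comparison htz1 1 (21.2%) and htz1 upf1 (16.1%) were rich in rDNA sequence, and no library with HTZ1 was. With the rDNA share as a covariate the difference was -0.59 and not called (limma adjusted p = 0.0595). Without SWR1, averaged over 3 backgrounds, none of the 9 was called by limma, beside 3.53% of tested genes lower. STN1 (-0.44, adjusted p = 0.128) and EST1 (-0.52, adjusted p = 0.0707) had unadjusted p-values under 0.05, and a voom fit to reads recovered from the RPKM called EST1 lower (-0.58, adjusted p = 0.0451). All 3 libraries without SWR1 and none of the 6 compared with them were rich in rDNA sequence, so the deletion and the rDNA share cannot be told apart. The same 3 were α libraries, as was only wild type 1 among the 6. In the upf1 and xrn1 backgrounds the deletion and the mating type therefore cannot be told apart either. With the rDNA share as a covariate the STN1 difference without SWR1 moved to 0.365 (adjusted p = 0.999).

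The prp43 DAmP allele left the 9 genes near the controls. With that allele, STN1 was at 10.4 RPKM in cells with HTZ1 and 7.30 in those without it, EST2 at 3.43 and 4.19, and RIF1 at 15.5 and 14.8. None of the 9 was called by limma or by limma voom and none had an unadjusted p under 0.05. Over all tested genes 0% were called, while 156 passed without adjustment. Without htz1 2 the same fit called 119 genes lower and 19 higher, and without prp43 DAmP htz1 it called 1 and 19, with none of the 9 among them. The interactions of UPF1 or XRN1 loss with HTZ1 or SWR1 loss called none of the 9 and 0% of tested genes with limma, the one tool used for them. At an unadjusted p under 0.05 each of these 4 tests held 75 to 153 genes, and the smallest p among the 9 was 0.116, for EST3 with UPF1 and HTZ1 loss.

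The balance between partners differed between the groups. STN1 and CDC13 stood near 1 to 1 in the 7 libraries with both UPF1 and XRN1, at a ratio of RPKM of 0.942 ± 0.180 (SD, n = 7). The ratio was 5.46 ± 1.14 (SD, n = 4) without UPF1 and 3.27 ± 1.39 (SD, n = 4) without XRN1, and neither range touched that of the 7. TEN1 to CDC13 went from 0.661 ± 0.150 (SD, n = 7) to 2.20 ± 0.417 without UPF1 and 1.49 ± 0.947 without XRN1 (SD, n = 4 each), where xrn1 1 was at 2.91 and the other 3 at 0.96 to 1.10. EST1 to EST2 was 1.79 ± 0.376 (SD, n = 7), with EST1 the higher, and 0.663 ± 0.127 and 0.846 ± 0.111 (SD, n = 4 each) without UPF1 and XRN1, with EST2 the higher in all 8 libraries. RIF2 to RIF1 was 0.405 ± 0.0423 (SD, n = 7) and became 1.06 ± 0.179 without UPF1 and 0.658 ± 0.193 without XRN1 (SD, n = 4 each). CDC13 to RIF1 was 0.514 ± 0.0871 (SD, n = 7), 0.606 ± 0.0625 and 0.472 ± 0.0890 (SD, n = 4 each), with overlapping ranges. A ratio within a library does not depend on how the library was scaled, and no test was run on these ratios.

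**Figure D4:**
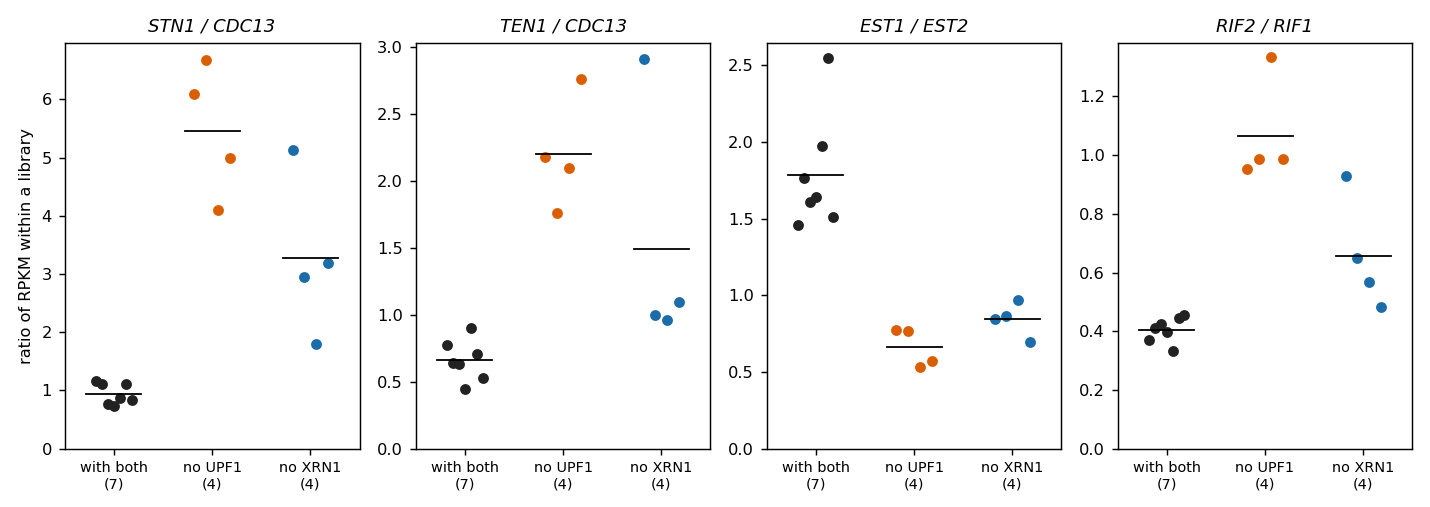
Ratio of the RPKM of a pair of genes within each library, 1 point per library, with a line at the mean. Groups are the 7 libraries with both UPF1 and XRN1 (black), the 4 without UPF1 (orange) and the 4 without XRN1 (blue). STN1 to CDC13 lies at 0.727 to 1.16 in the 7 libraries and at 4.11 to 6.67 without UPF1, while EST1 to EST2 lies at 1.46 to 2.55 and at 0.536 to 0.776.

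The order of the 9 levels, per length, differed between groups. By mean RPKM in the controls it ran EST2 (4.45), TEN1 (6.20), EST1 (7.37), RIF2 (7.50), STN1 (8.55), CDC13 (9.17), TEL1 (12.7), RIF1 (19.4) and EST3 (21.9). Each neighbour in this order overlapped the next over the 5 controls. Among all tested genes EST2 stood at percentile 8.42 and EST3 at percentile 39.3. Without UPF1 CDC13 was the lowest (13.0, percentile 11.4), and STN1 (70.4, percentile 71.8) and EST3 (93.7, percentile 79) were the highest. Without XRN1 CDC13 was again lowest (23.1) and EST3 highest (83.6), with STN1 at 69.5.

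Over the 15 libraries the 7 genes raised by both deletions followed each other closely in log2(RPKM + 1), with Pearson r from 0.932 to 0.986 for their pairs. CDC13 and RIF1 followed each other at 0.919, while RIF1 with the 7 lay between 0.589 and 0.777 and CDC13 with the 7 between 0.714 and 0.861. These points share libraries and groups, and the 7 were grouped by their rises in the same libraries, so the values are descriptions. The genes most like STN1 by this measure over all 15 libraries were FEN2 (0.995) and PGA1 (0.991), and those most like EST2 were VBA5 (0.992) and AAR2 (0.991). TEN1 was closest to SWM2 and MCM21 (0.991 each), EST1 to ECM10 and QDR1 (0.992 each), and EST3 to BDS1 (0.986) and DAL7 (0.983). RIF2 was closest to MED1 (0.994) and RKM4 (0.992), and TEL1 to NFT1 (0.992) and YNR065C (0.991). CDC13 was closest to DAK2 (0.980) and ISC1 (0.969), and RIF1 to SNT1 and KIN4 (0.991 each).

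None of the 9 genes overlaps another gene of the R64 annotation (RefSeq), and they lie 35.2 kb (RIF2) to 610 kb (STN1) from the nearest chromosome end. Overlap with the 749 entries not matched to that annotation was not checked. The strand setting of the read counting is not given in the sources used here, so antisense reads within a gene cannot be told apart from its own. Of the 18 neighbouring genes 5 were called higher without UPF1 and none lower, beside 28.8% of all tested genes higher. The neighbours of STN1 were not called without UPF1: PDC2 upstream was at 0.21 (limma adjusted p = 0.391) and RRP8 downstream, on the same strand, at 0.44 (adjusted p = 0.304). Of EST2's neighbours TAD3, an enzyme subunit that edits tRNA, was called higher (1.05, limma adjusted p = 0.000554) and BUD6 was not (0.19, adjusted p = 0.513). Beside CDC13, DTD1 was called higher without UPF1 (0.81, limma adjusted p = 0.00130), more than CDC13 itself. The others called were LOT6 beside TEN1 (0.58, adjusted p = 0.0381), FAA3 beside EST3 (0.57, adjusted p = 0.0485) and CHK1 beside RIF1 (0.45, adjusted p = 0.0271).

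Other telomere genes were also counted. A list of 35 was drawn up, from proteins bound at telomeres, end replication and checkpoint proteins, and the telomerase RNA with the factors for its assembly; 34 were tested, and the telomerase RNA TLC1 was not analysed here. Without UPF1 10 of 34 were called higher and none lower, close to the background share of 28.8%, with a median log2 difference of 0.33. Telomere-bound proteins gave 1 of 11, YKU80 of the Ku end-binding pair (0.93, limma adjusted p = 0.0123). End replication and checkpoint proteins gave 4 of 14, led by SAE2 (1.04, adjusted p = 0.000432), which starts the trimming of DNA ends, and LCD1 (1.01, adjusted p = 0.00104), the partner of the Mec1 kinase. The assembly factors gave 5 of 9, led by EBS1 (1.29, adjusted p = 0.000110), a relative of EST1, and BUD32 (0.99, adjusted p = 0.000443), the kinase of the KEOPS complex.

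Without XRN1 33 of the 34 were called higher and none lower, beside 74.1% of tested genes higher (31.7% higher and 28.7% lower after rescaling), with a median of 1.08 beside 0.99 for all genes. LCD1 (1.90), SAE2 (1.84), the primase subunit PRI2 (1.80) and the exonuclease EXO1 (1.70) rose most by limma, with adjusted p from 7.62e-06 to 1.09e-05. RFA3, of the single-strand binding protein RPA, was the one not called (0.18, adjusted p = 0.278). In the direct comparison 27 of 34 were lower without UPF1 than without XRN1, with a median of -0.76, and of the 9 genes 3 were, with a median of -0.13. Over all tested genes 53.2% were lower, with a median of -0.51. After rescaling 21.2% of all genes and 1 of the 9 were lower; the list was not counted on that scale.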

How the data were processed

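The authors deposited RPKM values, which divide reads by gene length and library size. Per the submitters' processing notes CASAVA and STAR 2.4.0 were used with the sacCer3 build. Of the counter, annotation and strand setting the sources used here give nothing. Of 6662 entries 3 without a distinct name (0.0203 to 0.129% of summed RPKM) were left out, 4 lines were emptied for this work, and 1 column matched no sample and was not used. RPKM times gene length gave whole reads, within 0.1 read, for 99.7 to 100% of values up to 200 reads. Names were matched to R64 (5910 of 6659), the same build.

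The 6495 genes averaging at least 1 RPKM were fitted with limma 3.58.1 (R 4.3.3; empirical Bayes with trend) on log2(RPKM + 1), and p-values were adjusted by Benjamini-Hochberg over all of them. Averaged comparisons had 4 libraries against 5 (5 residual degrees of freedom); single-state comparisons and interactions came from a fit of all 15 libraries with one mean per genotype (4 residual degrees of freedom). The procedure was tested on simulated data in which libraries differed only by random spread and by the changes put in. That test does not cover differences between libraries in rDNA share, mating type or scaling. All 9 genes passed the filter and are named in every comparison; of the wider list the 4 largest called rises and falls were named, with the further genes of its counts chosen after their values were seen, and for likeness the 2 genes with the highest r. The genes and lists were chosen with earlier results of these data known. Alternatives were other pseudocounts, filters, scaling, no trend, other fits, voom on recovered reads, rDNA settings and leaving out each library; keeping only libraries poor in rDNA sequence was added after seeing the data.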

Additional observations from a re-analysis of the deposited data

Results flagged for a closer look

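RIF2 stood apart in 1 library. Among the 4 libraries without UPF1, htz1 upf1 was at 30.1 RPKM and the next highest, upf1 1, at 21.0 RPKM, a gap of 0.875 of the whole range above Dixon's critical value for 4 libraries. Of 27 gene and group combinations examined this was the 1 singled out, and chance gives about 1 in 20. RIF2 remained called higher without UPF1 when that library was left out.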

How the results depend on the processing

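Of the 171 values of the 9 genes without UPF1 under alternatives, 160 kept their direction and their side of the threshold, 10 lost a call and 1 turned, RIF1 on rescaling to a common median log ratio (-0.17). Without XRN1 the numbers were 169, 2 and 0 of 171, against the wild type 98, 8 and 2 of 108 (UPF1) and 102, 6 and 0 of 108 (XRN1). In the direct comparison 135 of 162 kept both, 11 lost a call, 3 gained one and 13 turned. Scaling turned TEN1 (0.557), EST1 (0.512), RIF2 (0.206) and TEL1 (0.41) there, gave 4 genes higher and 1 lower, and turned RIF1 without UPF1 against the wild type (-0.139). Also turned were STN1 with the rDNA share as a covariate (-0.0431) and TEN1 with one mean per genotype (0.0491). EST2 (-0.0322) and EST3 (-0.014) turned with only libraries poor in rDNA sequence, where the difference rests on upf1 against xrn1 with H2A.Z intact. Leaving out single libraries moved STN1 between -0.0425 and 0.0867 and TEN1 between -0.268 and 0.139 in the direct comparison, and RIF1 without UPF1 against the wild type between -0.174 and 0.343. It moved the count of genes higher without UPF1 against the wild type between 4 and 7. With H2A.Z intact, scaling gave 3 genes higher and 0 lower in the direct comparison, a pseudocount of 5 or a fit to the compared libraries alone 2 lower, and leaving out libraries 0 to 1 lower. Without HTZ1 the 1 lower gene became 0 with a pseudocount of 5, with the rDNA covariate and on leaving out each library (0 to 0). Without SWR1, voom on recovered reads gave 1 lower in place of 0, and the rDNA covariate turned STN1 (0.365).

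With the replicate number as a block, the direct comparison with H2A.Z intact called 0 of 9 genes in place of 1 (RIF1 -0.987, adjusted p = 0.0504), 140 genes in place of 197 higher and 2397 in place of 2525 lower. Deviations of same-numbered libraries correlated over genes at -0.273 (htz1 and xrn1), 0.129 (htz1 and upf1) and 0.187 (xrn1 and upf1). With a lone pair of libraries per genotype, these values cannot settle whether the numbers mark libraries prepared together.

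Counts over all tested genes moved by over 1.5 times as follows. On rescaling, higher without XRN1 went from 4813 to 2059 and lower from 467 to 1861, lower without UPF1 from 55 to 1016, and in the direct comparison higher from 560 to 2049 and lower from 3456 to 1380. Against the wild type, higher without XRN1 went from 3951 to 1193, lower from 269 to 1177, and lower without UPF1 from 6 to 57 (32 in a fit to the compared libraries alone and 3 with a mean of at least 10 RPKM). With H2A.Z intact the direct counts went from 197 to 1260 higher and from 2525 to 866 lower, and without HTZ1 from 29 to 142 higher and from 96 to 224 lower. Keeping only libraries poor in rDNA sequence gave 937 in place of 1871 higher and 36 lower without UPF1, and 193 higher in the direct comparison. Both of these differences rest on 2 libraries against 2. One mean per genotype gave 17 lower without UPF1. The rDNA covariate gave 9 higher without HTZ1 and none without SWR1, where filters gave 12 (no filter) and 18 (mean of at least 10 RPKM) in place of 31 higher, and 87 in place of 229 lower. Leaving out single libraries gave 19 to 55 lower without UPF1, and against the wild type 288 to 881 higher and 2 to 23 lower without UPF1 and 2519 to 3919 higher and 121 to 237 lower without XRN1. It gave 54 to 156 higher and 1045 to 1746 lower in the direct comparison with H2A.Z intact, 1 to 21 higher and 29 to 77 lower without HTZ1, 3 to 38 higher and 40 to 260 lower without SWR1, and 0 to 19 higher and 0 to 119 lower with prp43 DAmP. The causes were not tested. Depth limits TEN1 most, at 59 to 578 reads per library.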
